A study of Caenorhabditis elegans with 34 samples.

Results

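The dod genes (downstream of DAF-16) of Caenorhabditis elegans were followed across 8 groups of sorted animals. The 10 members (dod-3, dod-6, dod-17, dod-18, dod-19, dod-20, dod-21, dod-22, dod-23 and dod-24) were taken by name from the 20223 features of the count table. The set was proposed because dod-24 differed strongly between animals sorted by mir-243p::GFP, so that gene was selected on its values within this biomarker, which are given only as a description. The members and the other gene lists were chosen with earlier results of these data known. Counts of called genes in them, set beside the share of all genes, are therefore descriptions too. All animals carried the temperature-sensitive allele spe-9(hc88), which blocks fertilisation at 25 °C, and all were collected as adults on day 5 from synchronised cultures fed Escherichia coli OP50. They were sorted in a microfluidic device into the brightest 10% (high) and dimmest 10% (low) of each population, and RNA came from the pooled animals of a sort. In the lin-4p::GFP (6 sorts), mir-243p::GFP (4 sorts) and mir-240/786p::GFP (4 sorts) strains, an integrated transgene drove GFP from the promoter of the named microRNA, and each reporter strain was 1 line crossed into spe-9. The remaining animals (3 sorts) were sorted by natural red autofluorescence. The labels give a long predicted life to the bright tail of the lin-4p::GFP strain, the bright tail of mir-243p::GFP, and the dim tails of mir-240/786p::GFP and autofluorescence. The other tail of each is predicted to be short-lived.

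DAF-16 is the FOXO transcription factor at the end of the insulin/IGF-1 pathway. When the receptor DAF-2 signals, the kinases below it keep DAF-16 out of the nucleus, and when DAF-2 activity falls DAF-16 enters the nucleus and animals live longer. The dod genes were named from microarrays of daf-2 and daf-16 animals. Class I targets, among them dod-3 and dod-6, are higher in long-lived daf-2 mutants, whereas class II targets, among them dod-17, dod-19, dod-22 and dod-24, are lower in these mutants. DOD-17, DOD-22 and DOD-24 are proteins with CUB-like domains, and dod-22 and dod-24 also serve as reporters of the intestinal response to pathogenic bacteria under the p38 kinase PMK-1.

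The members lie on 5 chromosomes (WBcel235, Ensembl annotation). Chromosome IV holds 4 of them within 41.6 kb, in the order dod-21 (WBGene00007873, chrIV:12936738-12937988, plus strand), dod-24 (WBGene00007875, chrIV:12940106-12941354, minus strand), dod-22 (WBGene00010125, chrIV:12965374-12967392, plus strand) and dod-17 (WBGene00010745, chrIV:12976303-12978343, plus strand). The gap between dod-21 and dod-24 is 2117 bases, that between dod-24 and dod-22 is 24019 bases, and that between dod-22 and dod-17 is 8910 bases. Chromosome V holds dod-3 (WBGene00016052, chrV:2730622-2731098, minus strand), dod-19 (WBGene00022644, chrV:411782-414759, minus strand) and dod-20 (WBGene00015259, chrV:422433-424177, plus strand), the last pair 7673 bases apart. The others are dod-6 (WBGene00011869, chrIII:10197716-10198352, plus strand), dod-23 (WBGene00009898, chrII:8398161-8399164, minus strand) and dod-18 (WBGene00008316, chrI:8019578-8020901, minus strand). The exons of dod-18 overlap those of C54G4.7 and rskn-2 on the other strand, and the sources used here do not say whether the counting used strand, so the reads of dod-18 cannot be told apart from those of its antisense neighbours. The CUB-like genes of chromosome IV resemble each other, and reads that match several of them could have been divided in more than 1 way.

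Each library held 15.8 to 26.1 M counts (M, 1000000 counts), with a median of 20.9 M. The labels were checked with the gfp transgene, which was higher in high than in low libraries without overlap in the 3 GFP strains (exact two-sided permutation p = 0.00216 in the lin-4p::GFP strain and 0.0286 in both other strains, the smallest these designs allow), while the autofluorescence libraries held 0 to 16 gfp counts. Markers of intestine, germline, muscle, neurons, epidermis, coelomocytes, and sheath and spermatheca were all detected in these whole animals. The lin-4p::GFP sorts 1 and 2 stood apart from the other libraries of that strain. Their second principal component ranged from −48.8 to −11.1, against 10.98 to 57.0 in sorts 3 to 6 and −26.3 to 8.91 in the other biomarkers. On this component sorts 3 to 6 lay above all other libraries. On the third, sorts 1 and 2 lay below all others (−49.8 to −21.1, against −17.7 to 0.723 in sorts 3 to 6 and −13.5 to 42.0 in the other biomarkers). The edgeR differences of the dod genes by lin-4p::GFP are also given for sorts 3 to 6 alone. Leaving sorts 1 and 2 out of the pooled fit changed the call of dod-22 only.

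Levels are counts per M after TMM scaling (CPM). A filter of at least 5 counts in at least 26 of the 34 libraries left 14245 genes and 8 of the 10 dod genes. Since each predicted class has 17 libraries, no gene could pass on 1 class alone. dod-20 reached 5 counts in 24 libraries and dod-21 in 9, and neither was tested with the others. The members covered a wide range of levels. Per kilobase of exon, the mean over all libraries was 201 CPM for dod-23, 59.5 for dod-19, 51.4 for dod-18, 19.8 for dod-24, 17.2 for dod-6, 14.3 for dod-3 and 4.62 for dod-22. It was below 1 for dod-17 (0.816), dod-21 (0.429) and dod-20 (0.253).

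**Figure D1:**
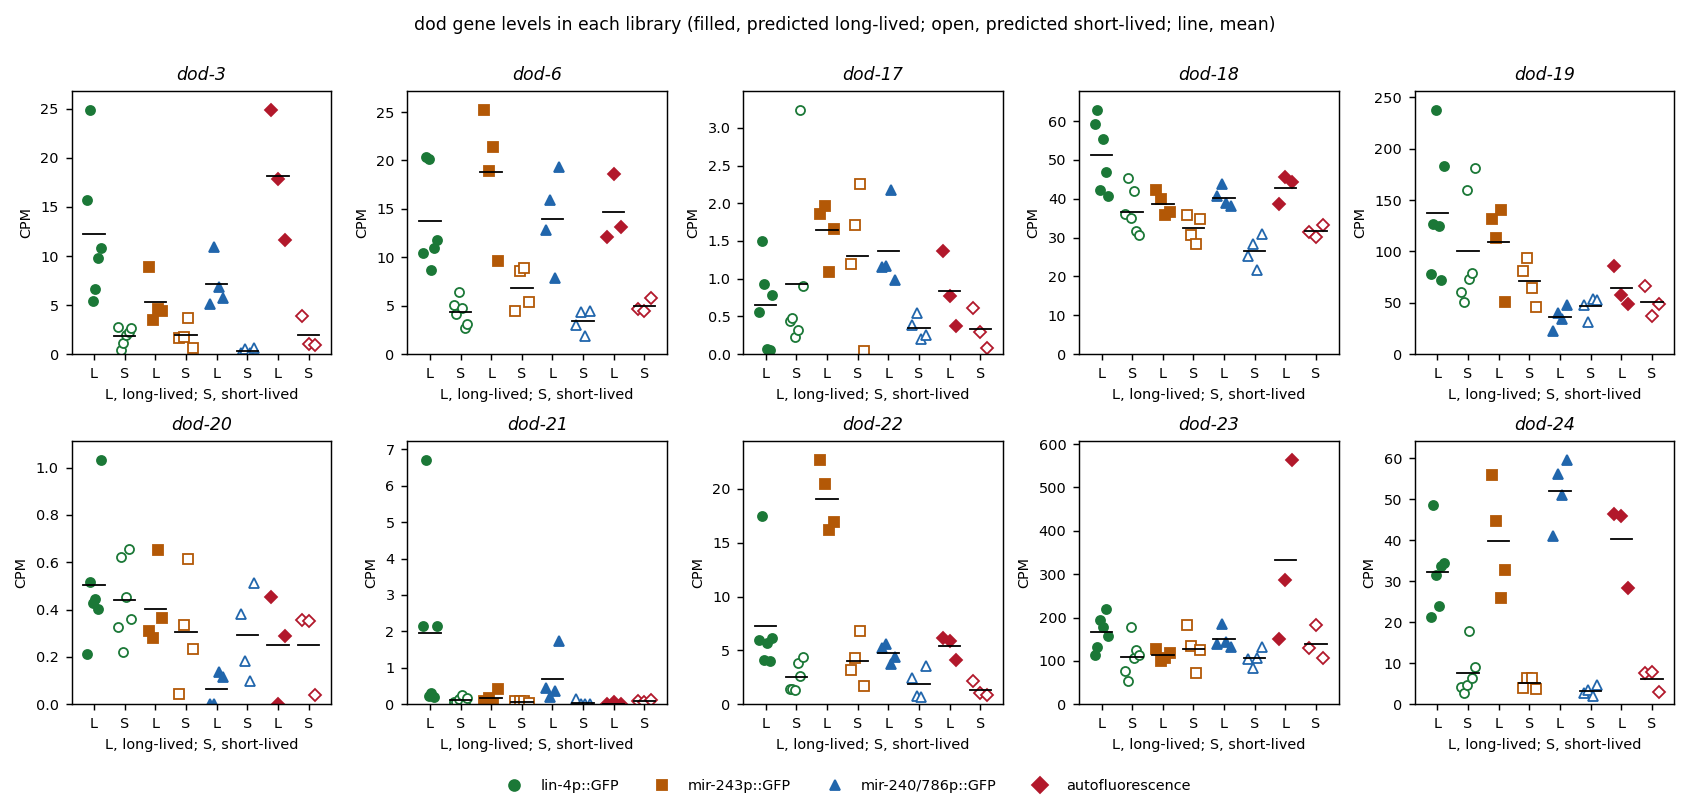
Level of each dod gene (CPM, linear axis from 0) in every library, by biomarker and predicted lifespan. Filled symbols are predicted long-lived libraries, open symbols predicted short-lived libraries, each symbol is 1 sort and lines are group means. For dod-24 the long-lived libraries lie between 21.3 and 59.5 CPM and all short-lived libraries at or below 17.9 CPM, whereas the groups of dod-19 overlap in every biomarker.

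The question behind every comparison was whether animals predicted to be long-lived differ from animals predicted to be short-lived. In the pooled comparison of the 26 libraries of lin-4p::GFP, mir-240/786p::GFP and autofluorescence, 5 of the 8 tested dod genes were higher in predicted long-lived animals at the threshold of the study (edgeR adjusted p under 0.0001) and none was lower. In the same comparison 16.1% of all genes tested passed this threshold with a higher and 18.1% with a lower level. The set was chosen with earlier results of these data known, so these shares do not test it. The 5 genes were dod-3 (9.55-fold), dod-24 (7.05-fold), dod-6 (3.40-fold), dod-22 (3.06-fold) and dod-18 (1.44-fold). dod-23 passed 0.05 but not the threshold (33.9% of all genes were higher at 0.05), and dod-17 and dod-19 passed neither. The median log2 fold change of the 8 genes was 1.17, beside 0.01 over all genes tested. Genes of both classes were thus among those called. dod-3 and dod-6 of class I and dod-22 and dod-24 of class II were all higher in the animals predicted to be long-lived.

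**Figure D2:**
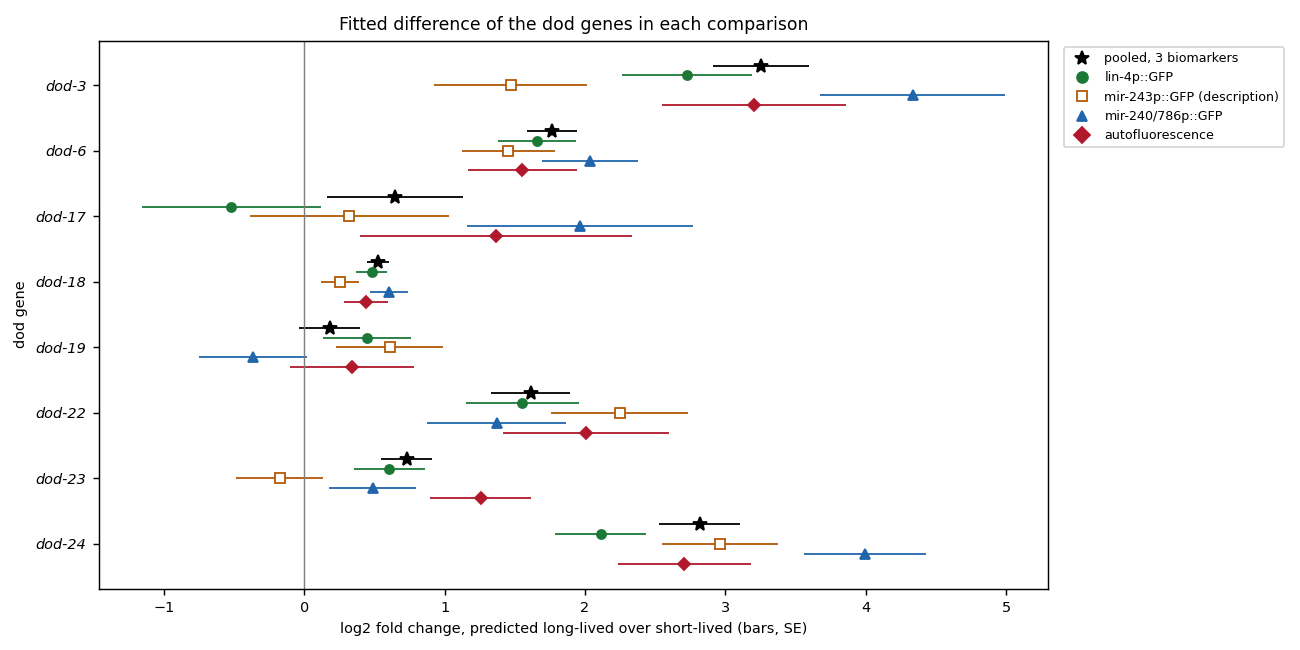
Fitted log2 fold change, predicted long-lived over predicted short-lived, of the 8 tested dod genes in each comparison. Bars are standard errors, and the mir-243p::GFP values (open squares) are a description only. dod-3 and dod-24 have the highest pooled values (3.26 and 2.82). The values of dod-17 and dod-19 lie on both sides of 0, and dod-23 is below 0 by mir-243p::GFP only (−0.18).

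dod-24, the CUB-like gene that is lower in daf-2 mutants, was 7.05-fold higher in predicted long-lived animals in the pooled comparison (log2 fold change 2.82, SE 0.29, adjusted p = 4.23e-09, higher in 13 of 13 sorts). By mir-240/786p::GFP it was at 41.0, 56.3, 51.1 and 59.5 CPM in the long-lived (low) libraries and at 2.63, 3.58, 2.07 and 4.76 CPM in the short-lived (high) libraries. These groups were far apart (log2 fold change 3.99, SE 0.43, adjusted p = 3.17e-08). Across lin-4p::GFP libraries it ranged from 21.3 to 48.5 CPM (median 32.6) in the long-lived libraries and from 2.78 to 17.9 CPM (median 5.59) in the short-lived libraries. The groups did not overlap, and the log2 fold change was 2.11 (SE 0.33, adjusted p = 4.82e-06). By autofluorescence, dod-24 was at 46.5, 46.0 and 28.3 CPM in long-lived and at 7.67, 7.90 and 3.00 CPM in short-lived libraries. These groups were also separate (log2 fold change 2.71, SE 0.47, adjusted p = 4.64e-05), but the call was lost with the sort as a replicate block (adjusted p = 0.0002). It was also lost without any one of the autofluorescence high libraries or without low sort 1 or 2, where the adjusted p reached 0.00116.

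Among the 8 groups, the mean of dod-24 was highest in mir-240/786p::GFP low (52.0 ± 8.11 CPM, SD, n = 4), followed by autofluorescence low (40.3 ± 10.4, n = 3), mir-243p::GFP high (39.8 ± 13.3, n = 4) and lin-4p::GFP high (32.3 ± 9.58, n = 6). The 4 short-lived groups came next, at 7.53 ± 5.50 CPM (n = 6) for lin-4p::GFP low, 6.19 ± 2.76 (n = 3) for autofluorescence high, 5.10 ± 1.50 (n = 4) for mir-243p::GFP low and 3.26 ± 1.18 (n = 4) for mir-240/786p::GFP high. In this order only the step from lin-4p::GFP high to lin-4p::GFP low had ranges that did not overlap. Whether the size of the difference varied among the 3 biomarkers was tested as an interaction. For dod-24 the unadjusted p was 0.00353 and the adjusted p was 0.136 (0.0503 to 0.317 when 1 library was left out), while DESeq2 gave an adjusted p of 0.0401. None of the other 7 genes had an unadjusted interaction p under 0.05 in this fit. The unadjusted p of dod-17 was 0.0508, with 0.0377 by DESeq2 and 0.0178 to 0.295 when 1 library was left out, and its adjusted p was 0.278 or more in these. Those of dod-19 with the replicate block (0.0358) and dod-23 without autofluorescence low sort 1 (0.0402) were also under 0.05. Of all genes tested, 0% passed the threshold of the study in this interaction, 0.73% passed an adjusted p of 0.05 and 1718 genes had an unadjusted p under 0.05. By DESeq2, 12 of 14245 genes passed the threshold of the study and 395 passed 0.05, the level that dod-24 passed there.

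dod-3, a short class I gene, had the highest pooled difference of the set (log2 fold change 3.26, SE 0.34, adjusted p = 5.81e-09, higher in 13 of 13 sorts). By mir-240/786p::GFP it was at 5.15, 10.9, 6.82 and 5.75 CPM in long-lived libraries and at 0.143, 0.499, 0.0985 and 0.665 CPM in short-lived libraries. The short-lived values rest on 2 to 13 counts each, at or below 3 counts in sorts 1 and 3, and the groups were separate (log2 fold change 4.33, SE 0.66, adjusted p = 3.94e-06). Across lin-4p::GFP libraries it ranged from 5.42 to 24.8 CPM (median 10.3) in long-lived and from 0.402 to 2.79 CPM (median 2.09) in short-lived libraries. These groups did not overlap either (log2 fold change 2.73, SE 0.46, adjusted p = 1.73e-05), but with the replicate block the adjusted p was 0.000145, short of the threshold of the study. By autofluorescence, dod-3 was at 24.9, 17.9 and 11.6 CPM in long-lived and at 3.94, 1.06 and 0.905 CPM in short-lived libraries. The difference there passed 0.05 only (log2 fold change 3.20, SE 0.66, adjusted p = 0.000294), although the groups were separate.

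dod-6, the other class I gene, was 3.40-fold higher in predicted long-lived animals in the pooled comparison (log2 fold change 1.77, SE 0.18, adjusted p = 3.67e-09, higher in 13 of 13 sorts). Its long-lived libraries were at 12.81, 15.9, 7.91 and 19.3 CPM and its short-lived libraries at 2.96, 4.36, 1.87 and 4.45 CPM in the mir-240/786p::GFP sorts. The groups were separate (log2 fold change 2.03, SE 0.34, adjusted p = 1.60e-05), and the call was lost without high sort 1, high sort 3 or low sort 4 of this biomarker, where the adjusted p reached 0.000187. Sorted by lin-4p::GFP, dod-6 ranged from 8.67 to 20.4 CPM (median 11.3) in long-lived and from 2.73 to 6.42 CPM (median 4.43) in short-lived libraries, again without overlap (log2 fold change 1.66, SE 0.28, adjusted p = 1.41e-05). By autofluorescence it was at 12.1, 18.6 and 13.2 CPM in long-lived and at 4.65, 4.42 and 5.84 CPM in short-lived libraries. This difference passed 0.05 only (log2 fold change 1.55, SE 0.39, adjusted p = 0.00197). The 4 long-lived groups of dod-6 had means from 13.7 ± 5.15 CPM (n = 6) in lin-4p::GFP high to 18.8 ± 6.61 CPM (n = 4) in mir-243p::GFP high, and all neighbours in the order of its 8 groups overlapped.

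dod-22, a CUB-like class II gene 24019 bases from dod-24, was called in the pooled comparison (log2 fold change 1.61, SE 0.28, adjusted p = 1.82e-05, higher in 13 of 13 sorts) but in none of the 3 biomarkers alone. In the lin-4p::GFP sorts it ranged from 3.98 to 17.5 CPM (median 5.82) in long-lived and from 1.33 to 4.39 CPM (median 2.00) in short-lived libraries. The groups overlapped, and the highest value, in sort 2, was well above the next at 6.13 CPM. The lin-4p::GFP log2 fold change was 1.55 (SE 0.40, adjusted p = 0.00201). In sorts 1 and 2 alone it was 3.12 (SE 0.66), and in sorts 3 to 6 alone it was 0.69 (SE 0.41, adjusted p = 0.189). Without lin-4p::GFP sorts 1 and 2, the pooled log2 fold change of dod-22 was 1.31 with an adjusted p of 0.000152, so the call ended. Sorted by mir-240/786p::GFP, dod-22 was at 5.26, 5.59, 3.71 and 4.35 CPM in long-lived and at 2.39, 0.726, 0.689 and 3.53 CPM in short-lived libraries. These groups were close but separate (log2 fold change 1.37, SE 0.50, adjusted p = 0.0223), and 0.05 was not passed without high sort 2, high sort 3 or low sort 2 (adjusted p up to 0.0867). By autofluorescence it was at 6.16, 5.91 and 4.06 CPM in long-lived and at 2.20, 1.00 and 0.823 CPM in short-lived libraries (log2 fold change 2.00, SE 0.59, adjusted p = 0.00733, or 0.0512 without high sort 3).

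dod-17, the third CUB-like class II gene, was low in all groups and did not pass in the pooled comparison (log2 fold change 0.65, SE 0.48, adjusted p = 0.241, higher in 10 of 13 sorts). In the lin-4p::GFP sorts it ranged from 0.0503 to 1.51 CPM (median 0.670) in long-lived and from 0.221 to 3.23 CPM (median 0.456) in short-lived libraries. The highest value of the whole gene was in the short-lived library of sort 5, whose long-lived partner held 1 count. Without that short-lived library the lin-4p::GFP log2 fold change turned from −0.52 (SE 0.63) to 0.46, and the pooled value became 1.19 with an adjusted p of 0.0100. The lin-4p::GFP value was 1.23 (SE 0.86) in sorts 1 and 2 alone and −1.47 (SE 0.81, adjusted p = 0.154) in sorts 3 to 6 alone. The mir-240/786p::GFP groups were separate, with 1.15, 1.17, 2.17 and 0.987 CPM in long-lived and 0.382, 0.545, 0.197 and 0.256 CPM in short-lived libraries. That difference passed 0.05 only (log2 fold change 1.96, SE 0.81, adjusted p = 0.0424) and no longer did with the replicate block (adjusted p = 0.0603) or without any one of 6 of these 8 libraries (adjusted p up to 0.117).

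dod-19 was among the more abundant members and the least different between the predicted classes (pooled log2 fold change 0.18, SE 0.22, adjusted p = 0.465, higher in 8 of 13 sorts). It varied more between libraries of 1 group than between the classes. Among the lin-4p::GFP long-lived libraries it ranged from 72.0 to 238 CPM (median 126), and among the short-lived libraries from 50.8 to 181 CPM (median 76.0). In both classes sorts 3 and 6 were the highest. The lin-4p::GFP log2 fold change of dod-19 was 0.95 (SE 0.44, adjusted p = 0.0705) in sorts 1 and 2 alone. In sorts 3 to 6 alone that of dod-19 was 0.30 (SE 0.37, adjusted p = 0.545). Its mir-240/786p::GFP values were 22.1, 40.0, 34.5 and 48.0 CPM in long-lived and 48.3, 31.5, 53.4 and 53.1 CPM in short-lived libraries, a log2 fold change of −0.37 (SE 0.39) whose adjusted p was 0.445. The groups overlapped in each biomarker, and all neighbours in the order of its 8 group means overlapped, from 137 ± 63.5 CPM (n = 6) in lin-4p::GFP high to 36.2 ± 10.9 CPM (n = 4) in mir-240/786p::GFP low.

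dod-18 had a small difference with a small spread (pooled log2 fold change 0.53, SE 0.08, adjusted p = 2.32e-06, higher in 13 of 13 sorts). Its long-lived libraries ranged from 40.8 to 62.8 CPM (median 51.1) and its short-lived libraries from 30.6 to 45.3 CPM (median 35.5) in the lin-4p::GFP sorts. The groups overlapped, and the difference passed 0.05 only (log2 fold change 0.48, SE 0.11, adjusted p = 0.000658). This log2 fold change was 0.65 (SE 0.15) in sorts 1 and 2 alone and 0.40 (SE 0.11, adjusted p = 0.00723) in sorts 3 to 6 alone. In the mir-240/786p::GFP sorts dod-18 was at 40.6, 43.8, 38.8 and 38.02 CPM in long-lived and at 25.1, 28.4, 21.7 and 30.9 CPM in short-lived libraries. These were separate (log2 fold change 0.60, SE 0.14, adjusted p = 0.000492). With the replicate block, dod-18 was called in both of these biomarkers (adjusted p = 4.23e-05 in lin-4p::GFP and 2.07e-05 in mir-240/786p::GFP). With library totals as the only scaling, its pooled call was lost (log2 fold change 0.49, adjusted p = 0.000356). By autofluorescence the groups were separate and the difference passed 0.05 only (log2 fold change 0.44, SE 0.16, adjusted p = 0.0243). It did not pass 0.05 there with library totals only (adjusted p = 0.143). The same held without high sort 1, high sort 2, low sort 2 or low sort 3 (adjusted p up to 0.121).

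dod-23 was the most abundant member and passed 0.05 only in the pooled comparison (log2 fold change 0.73, SE 0.18, adjusted p = 0.000903, higher in 13 of 13 sorts). In the autofluorescence sorts it was at 151, 287 and 563 CPM in long-lived and at 129, 183 and 107 CPM in short-lived libraries. The groups overlapped, since the lowest long-lived value lay within the short-lived range, and the log2 fold change was 1.26 (SE 0.36, adjusted p = 0.00610). Without low sort 3, the library at 563 CPM, it was 0.65 with an adjusted p of 0.147, and with only the libraries of this biomarker in the fit the adjusted p was 0.107. In the lin-4p::GFP sorts it ranged from 114 to 220 CPM (median 168) in long-lived and from 53.3 to 177 CPM (median 111) in short-lived libraries (log2 fold change 0.61, SE 0.25, adjusted p = 0.0458). This value did not pass 0.05 in sorts 3 to 6 alone (0.50, adjusted p = 0.178) or without any one of several libraries (adjusted p up to 0.125). In the mir-240/786p::GFP sorts it was at 139, 185, 144 and 133 CPM in long-lived and at 105, 84.1, 106 and 132 CPM in short-lived libraries. These groups were adjacent without overlap, and the difference did not pass 0.05 (log2 fold change 0.49, SE 0.31, adjusted p = 0.189).

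dod-20 and dod-21 were compared by exact two-sided permutation tests on CPM, 6 tests in all with Benjamini-Hochberg adjustment over them. dod-21, the neighbour of dod-24, was uneven in the lin-4p::GFP long-lived libraries, with 50, 169, 3, 5, 4 and 44 counts. Its short-lived libraries there held 0 to 4 counts. The difference in mean was 1.84 CPM (exact permutation p = 0.00866, adjusted 0.0519), higher in 6 of 6 sorts. In sorts 3 to 6 alone it was 0.576 CPM (exact permutation p = 0.114). In the mir-240/786p::GFP sorts dod-21 had 9, 5, 8 and 30 counts in long-lived and 3, 0, 0 and 0 counts in short-lived libraries (exact permutation p = 0.0286, adjusted 0.0857). The groups did not overlap, and 0.0286 is the smallest p that 4 against 4 libraries allow. The autofluorescence libraries held at most 3 counts, a floor under which levels cannot be ranked (0.115 to 0.190 CPM at the highest and lowest totals, for counting error only). dod-20, which lies next to dod-19, had 0 to 21 counts in any library. Its means were 0.506 ± 0.276 and 0.440 ± 0.171 CPM (n = 6) in long-lived and short-lived lin-4p::GFP libraries (exact permutation p = 0.686). In the mir-240/786p::GFP sorts it had 0, 0, 3 and 2 counts in long-lived and 8, 4, 2 and 10 counts in short-lived libraries (exact permutation p = 0.0857, adjusted 0.15), and no difference was detectable at this depth.

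Within single biomarkers, 3 of the 8 tested genes (dod-3, dod-6 and dod-24) were called higher in long-lived animals by lin-4p::GFP, against 4.42% of all genes tested. By mir-240/786p::GFP the same 3 genes were called, against 6.47%. By autofluorescence 1 was called (dod-24), against 2.05%. None was called lower in any of the 3 biomarkers, against 9.85%, 8.64% and 5.17% of all genes in the same order. At 0.05, 6 of the 8 genes were higher in each, against 24.4%, 24.6% and 21.3%. With the replicate block these were 7 by lin-4p::GFP, 5 by mir-240/786p::GFP and 6 by autofluorescence. Groups without overlap, long-lived above short-lived, were found for 3 of 8 genes by lin-4p::GFP (6.14% of all genes), 7 of 8 by mir-240/786p::GFP (27.8%) and 5 of 8 by autofluorescence (33%). The exception by mir-240/786p::GFP was dod-19.

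In the mir-243p::GFP sorts, whose values chose dod-24, this gene was at 55.8, 44.8, 25.9 and 32.7 CPM in long-lived (high) and at 3.92, 6.36, 6.43 and 3.69 CPM in short-lived (low) libraries. The log2 fold change was 2.96 (SE 0.41), and no test is given. dod-22 was at 22.6, 20.4, 16.2 and 16.9 CPM in long-lived and at 3.18, 4.31, 6.80 and 1.73 CPM in short-lived libraries (log2 fold change 2.25, SE 0.48). Its mean of 19.1 ± 3.02 CPM (n = 4) in mir-243p::GFP high was the highest of the 8 groups. The next group was lin-4p::GFP high (7.23 ± 5.11 CPM, n = 6), and only its sort 2 library reached the same range. dod-6 was at 25.2, 18.9, 21.3 and 9.65 CPM in long-lived and at 4.50, 8.58, 8.93 and 5.37 CPM in short-lived libraries (log2 fold change 1.45, SE 0.33). dod-3 was at 8.87, 3.49, 4.62 and 4.42 CPM in long-lived and at 1.61, 1.76, 3.73 and 0.607 CPM in short-lived libraries (log2 fold change 1.47, SE 0.54), and these groups overlapped. The log2 fold changes of the others were 0.61 (SE 0.38) for dod-19, 0.32 (SE 0.71) for dod-17, 0.25 (SE 0.14) for dod-18 and −0.18 (SE 0.31) for dod-23. Groups were separate for dod-6 and dod-22, with 14.2% of all genes separate in this direction. Those of dod-24 were separate too, from which nothing is read since these values chose it. dod-23 was higher in the short-lived library in all but 1 of the 4 sorts.

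**Figure D3:**
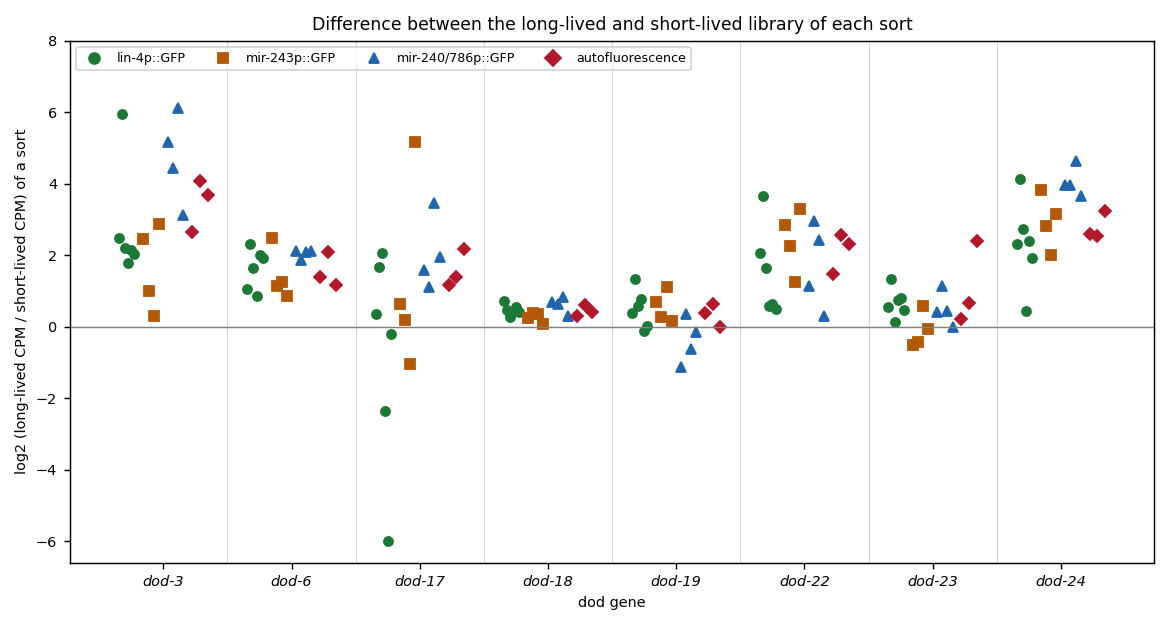
log2 ratio of the long-lived to the short-lived library of each sort, for the 8 tested dod genes and 17 sorts. Points above 0 are sorts with the higher level in the long-lived library. In all 13 sorts other than those by mir-243p::GFP this holds for dod-3, dod-6, dod-18, dod-22, dod-23 and dod-24 (17.2% of all genes tested). The mir-243p::GFP sorts, which chose dod-24, are shown as a description only. The lowest point is dod-17 in lin-4p::GFP sort 5, a ratio of 0.0156 that rests on 1 count (exact 95% counting interval 0.000388 to 0.0899).

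In all 13 sorts of lin-4p::GFP, mir-240/786p::GFP and autofluorescence the long-lived library was higher for 6 of the 8 genes (dod-3, dod-6, dod-18, dod-22, dod-23 and dod-24), and 17.2% of all genes tested had this pattern. In the 4 mir-243p::GFP sorts it was also higher in each for dod-3, dod-6, dod-18 and dod-22, and for dod-24, which those sorts chose. The size of the difference varied from sort to sort. Over the 13 sorts other than those by mir-243p::GFP, the ratio of dod-24 ranged from 1.35 in lin-4p::GFP sort 4 to 24.7 in mir-240/786p::GFP sort 3. Its median there was 6.67. Over all 17 sorts, the ratio of dod-3 ranged from 1.24 in mir-243p::GFP sort 3 to 69.3 in mir-240/786p::GFP sort 3. The short-lived library of the latter sort held 2 counts, and the exact 95% interval of the ratio was 18.9 to 578 (counting error only). The ratio of dod-6 stayed between 1.80 and 5.60, and that of dod-18 between 1.05 and 1.79. The ratio of dod-22 ranged from 1.23 to 12.59, with the highest value in lin-4p::GFP sort 2. In the long-lived libraries of that strain, sort 2 was the highest for 7 of the 10 members. The lin-4p::GFP difference of dod-24 was 3.39 (log2, SE 0.50) in sorts 1 and 2 alone and 1.69 (SE 0.34, adjusted p = 0.000365) in sorts 3 to 6 alone. That of dod-3 was 3.81 (SE 0.82) and 2.00 (SE 0.48, adjusted p = 0.0018). That of dod-6 was 1.82 (SE 0.47) and 1.59 (SE 0.34, adjusted p = 0.000637). These differences kept their direction in both sets of sorts. None of the 8 genes passed the threshold of the study in sorts 3 to 6 alone, and only dod-24 did in sorts 1 and 2 alone (adjusted p = 1.67e-05).

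The pattern of each member over the 34 libraries was compared with all other genes tested, as Pearson's r of log2 CPM. These correlations are descriptions over libraries that share the split into long-lived and short-lived animals, and the r within the 17 long-lived and within the 17 short-lived libraries is given beside them. The genes most like dod-24 were ZC412.3 (r = 0.940), ZK1320.3 (0.935) and ttr-41 (0.934), with 0.11, −0.24 and 0.01 within the long-lived and 0.91, 0.82 and 0.82 within the short-lived libraries. For dod-3 they were W10G11.3 (0.923), spp-16 (0.922), a saposin-like gene, and ilys-5 (0.920), an invertebrate-type lysozyme, with 0.61, 0.69 and 0.44 within the long-lived and 0.84, 0.79 and 0.86 within the short-lived libraries. For dod-6 they were acox-1.4 (0.878), pho-11 (0.876) and dhs-2 (0.873), with 0.71, 0.29 and 0.50 within the long-lived and 0.60, 0.63 and 0.53 within the short-lived libraries. For dod-22 they were K08D8.4 (0.895), F55G11.8 (0.894) and ugt-1 (0.877), with 0.67, 0.74 and 0.78 within the long-lived and 0.87, 0.85 and 0.69 within the short-lived libraries. Of these, F55G11.8 lies on the same cosmid as dod-22. dod-19 was most like ifb-2 (0.883), an intermediate filament gene of the intestine, with 0.91 in each class. For dod-17 the highest r was 0.670 (F56B3.9, 0.64 in each class), and for dod-23 it was 0.741 (otpl-6, 0.87 within long-lived and 0.46 within short-lived libraries). For dod-18 it was 0.930 (F10E9.7, 0.88 in each class).

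Between members, dod-3 and dod-24 had the highest r over the 34 libraries (0.869), followed by dod-6 and dod-24 (0.845). Within the 17 long-lived libraries these values were 0.12 and 0.38, and within the 17 short-lived libraries they were 0.73 and 0.27. Among the chromosome IV genes, dod-17 and dod-22 were at 0.48 within long-lived and at 0.60 within short-lived libraries, and dod-22 and dod-24 were at 0.11 and 0.57.

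The other genes of the C32H11 and F55G11 cosmids, which hold dod-21, dod-22 and dod-24, were taken as a list of neighbours. The list held 17 features, of which 2, both named srlf-6, had the same counts in every library and may be 1 measurement. The filter was passed by 4, and all 4 were called higher in predicted long-lived animals in the pooled comparison (16.1% of all genes tested). They were F55G11.4 (log2 fold change 3.08, SE 0.32, adjusted p = 9.11e-09), C32H11.4 (2.69, SE 0.47), F55G11.8 (2.13, SE 0.38) and C32H11.3 (1.51, SE 0.22). F55G11.4 was higher in 13 of 13 sorts and C32H11.4 in 12 of 13. F55G11.8 is also among the genes called higher in the p38 list below. C32H11.3 was low, with a mean of 0.648 CPM over all libraries. The median of these neighbours was 2.41.

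**Figure D4:**
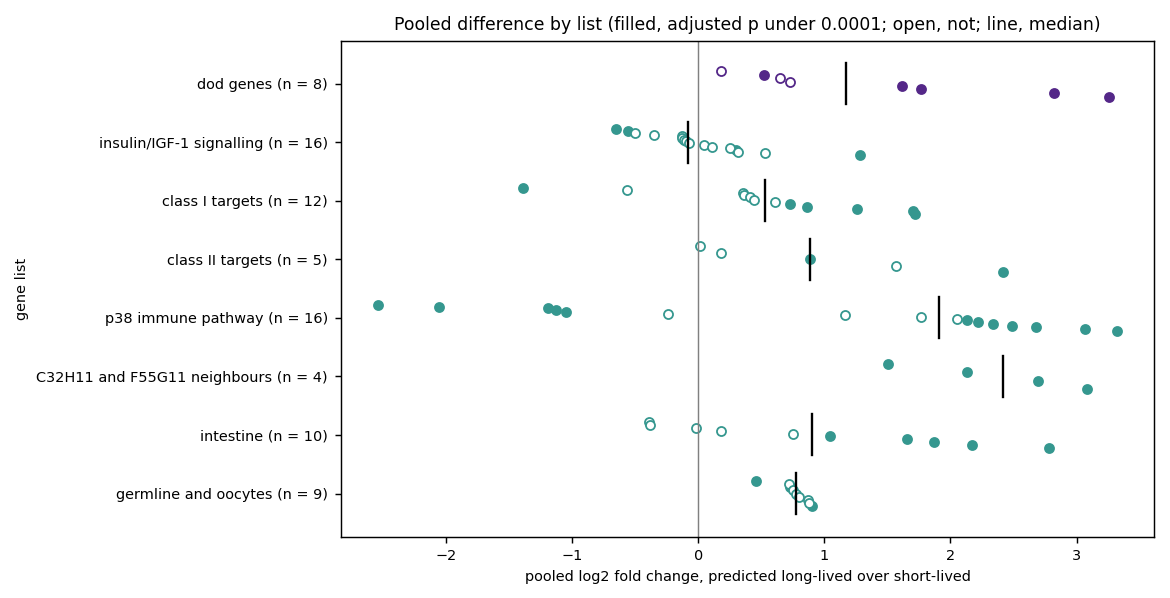
Pooled log2 fold change (predicted long-lived over short-lived, 26 libraries) of the tested genes of each list. Filled points have an adjusted p under 0.0001 and lines are list medians. The dod genes have a median of 1.17, the p38 immune list holds genes on both sides of 0 with a median of 1.91, and the insulin/IGF-1 list is centred near 0 at −0.08.

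Of the 16 genes of the insulin/IGF-1 pathway, 2 were called higher and 2 lower in the pooled comparison (16.1% and 18.1% of all genes tested), and the median log2 fold change was −0.08. The gene with the largest change was sgk-1 (1.28, SE 0.15, adjusted p = 5.66e-08, higher in 13 of 13 sorts), a kinase related to the AKT kinases. The transcript of daf-16 differed by 0.11 (SE 0.13, adjusted p = 0.478), and that of daf-2 by −0.13 (SE 0.17, adjusted p = 0.512). Of the abundant genes of the list, par-5 (0.30, SE 0.06), which encodes a 14-3-3 protein that holds DAF-16 in the cytoplasm, was called higher. The DAF-16 cofactor gene smk-1 (−0.65, SE 0.11) and the second 14-3-3 gene ftt-2 (−0.55, SE 0.08) were called lower. sgk-1, daf-16 and daf-2 were singled out after their values were seen.

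Other known DAF-16 targets were split by class. Of 12 tested class I genes, 5 were called higher (16.1% of all genes tested) and 1 lower (18.1%), with a median of 0.53. The most abundant were sip-1 (0.86, SE 0.14, called), a small heat shock protein, lea-1 (0.45, SE 0.19, adjusted p = 0.0366), icl-1 (1.72, SE 0.26, called), the enzyme of the glyoxylate cycle, and ctl-1 (0.73, SE 0.12, called), a catalase whose reads could be shared with the similar neighbouring catalase genes. The gene called lower was hsp-12.6 (−1.39, SE 0.23), named here after its value was seen. Of 5 tested class II genes, 2 were called higher and none lower, beside the same shares of all genes, with a median of 0.89. The vitellogenin genes vit-2 (1.57, SE 0.40, adjusted p = 0.00128) and vit-5 (2.42, SE 0.45, adjusted p = 3.87e-05) encode yolk proteins made in the intestine and belong to a family of similar genes. ins-7, an insulin-like peptide, was at 0.02 (SE 0.10), and pept-1, the intestinal peptide transporter, at 0.18 (SE 0.23).

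The p38 list holds the kinases above dod-22 and dod-24 in the immune response and other effector genes. Of its 16 tested genes, 7 were called higher (16.1% of all genes tested) and 5 lower (18.1%), with a median of 1.91. The most abundant were tir-1 (−2.54, SE 0.13, called lower), the adaptor at the top of the cascade, atf-7 (−0.24, SE 0.06, adjusted p = 0.00165), its transcription factor, vhp-1 (−2.05, SE 0.13, called lower), a phosphatase that acts on the pathway, and nsy-1 (−1.05, SE 0.10, called lower), a kinase below TIR-1. The genes called lower were all signalling components, with sek-1 and pmk-1 the remaining ones, and those called higher were all effectors, among them sysm-1, irg-4, clec-60 and clec-85. Genes beyond the most abundant 4 were named after their values were seen.

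The summed level of 10 intestinal markers ranged from 1185 to 3553 CPM (median 2377) over the 17 predicted long-lived libraries and from 175 to 1363 CPM (median 538) over the 17 short-lived libraries, and no marker was at 0 in every library of a class. The proteases asp-1 and cpr-1 made up 82.6% of the summed mean level. By mir-240/786p::GFP the sum was 1661 to 2592 CPM in long-lived and 175 to 538 CPM in short-lived libraries. In the lin-4p::GFP sorts it was 1283 to 3553 and 247 to 1363 CPM, and in the autofluorescence sorts 1278 to 1679 and 298 to 649 CPM. Of the 10 markers, 5 were called higher in the pooled comparison and none lower (16.1% and 18.1% of all genes tested, which also stand beside the marker counts that follow). The most abundant were asp-1 (1.87, SE 0.30, called), an aspartic protease, cpr-1 (2.78, SE 0.46, called), a cathepsin B, vha-6 (1.66, SE 0.23, called), a proton pump subunit, and mtl-2 (−0.38, SE 0.14, adjusted p = 0.0178), a metallothionein. The log2 fold changes of act-5 (−0.39, SE 0.26, adjusted p = 0.184), an actin of the intestinal microvilli, ifb-2 (−0.02, SE 0.20) and pept-1 (0.18, SE 0.23) did not pass 0.05. Of the rest, ges-1 and elt-7 were called higher and elt-2 (0.75, SE 0.21, adjusted p = 0.00299) was not, the last 6 being named after their values were seen. Of 9 germline and oocyte markers, 3 were called higher, and all 9 were higher at 0.05 (33.9% of all genes tested). Their sums were 6311 to 7526 CPM in long-lived and 2599 to 4176 CPM in short-lived libraries by mir-240/786p::GFP. By autofluorescence they were 7210 to 8288 and 2230 to 4220 CPM. They overlapped by lin-4p::GFP (3900 to 12025 and 2623 to 8362 CPM) and by mir-243p::GFP (4107 to 7481 and 3804 to 5866 CPM). Of 7 neuronal markers 4 were called lower. Their sums were 541 to 629 CPM in long-lived and 953 to 1214 CPM in short-lived libraries by mir-240/786p::GFP, 291 to 321 and 446 to 498 CPM by autofluorescence, 331 to 384 and 368 to 553 CPM by lin-4p::GFP, and 2503 to 3971 and 3424 to 3879 CPM by mir-243p::GFP. Most of the summed mean level was unc-119 (845 CPM over all libraries, with snb-1 next at 259 CPM). The neuronal sums thus follow mainly this gene and are no measure of neuronal content between strains. Of 6 muscle markers 1 was called higher (132 to 750 and 45.1 to 499 CPM), of 4 tested epidermal markers 2 were called lower (76.1 to 787 and 167 to 793 CPM), of 2 coelomocyte markers 1 was called higher (4.78 to 15.1 and 3.55 to 6.19 CPM) and of 3 sheath and spermatheca markers 1 was called lower (201 to 559 and 362 to 669 CPM). In whole animals, fewer cells of a type and less RNA per cell cannot be told apart, and the part of these markers in the differences of the dod genes was not tested.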

How the data were processed

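Raw read counts per gene for 34 poly(A)-selected, rRNA-depleted libraries of sorted whole animals were deposited by the authors. The submitters' processing notes name STAR 2.7.3a, featureCounts and the build WBcel235. The use of strand, the treatment of multi-mapping reads and the annotation release are not given in the sources used here. Values were whole numbers with a different total in each library, and pairs of libraries within groups differed by 10.4 to 269.7 chi-square units per degree of freedom, more than counting noise. Library totals included the gfp row, which was not tested with the genes. Symbols were found for 19708 features, and positions and exonic lengths came from Ensembl release 115.

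Genes that reached 5 counts in 75% of libraries or more were tested with edgeR 4.0.16 (R 4.3.3; TMM, robust quasi-likelihood F-test, Benjamini-Hochberg adjustment over 14245 genes). Differences within a biomarker came from 8 group means over all 34 libraries. The pooled fit used 26 libraries, 13 sorts, with biomarker as a term, and mir-243p::GFP was left out because its values chose dod-24. Standard errors are the log2 fold change divided by the square root of F. Calls were made at an adjusted p of 0.0001, the threshold of the study. The fits were run on simulated counts with the same spread for all genes and no correlation within a sort. That run cannot show how the p-values hold in these data, where libraries of a sort were correlated. High and low libraries of 1 sort share a sort number in the labels and come from the same sorted population, so the replicate block is given where it changes a call. Deviations from group means of the 2 libraries of a sort correlated with r from −0.07 to 0.57, above 0.1 in 11 of 17 sorts. The labels do not say that sorts were separate cultures. The p-values of the main fits measure the spread between libraries and treat the high and low library of a sort as independent. Only the replicate block pairs them. The study also modelled a sequencing batch that the labels do not give, and no batch term was fitted. Principal components and correlations used log2 CPM with a prior count of 2. All 10 dod genes were named. For other lists the rule was to name at most the 4 genes with the highest mean CPM. Genes named beyond these, apart from srlf-6 with its equal counts, were added after their values were seen and are marked so above. For each tested member the 3 genes with the highest r or fewer were named. The members and lists were chosen with earlier results of these data known. Alternatives were DESeq2 1.42.0, other scalings, no filter, the replicate block, fits on single biomarkers or on lin-4p::GFP sorts apart, and leaving out each library. The removal of lin-4p::GFP sorts 1 and 2 from the pooled fit was chosen after seeing the data. Promoter motifs were not analysed here. The value of 1 gene of the insulin/IGF-1 list is not reported here.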

Additional observations from a re-analysis of the deposited data

Results flagged for a closer look

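Of 60 groups of 4 to 6 libraries, 8 held a library far from the rest by Dixon's criterion, and chance flags about 1 in 20 groups. dod-22 was at 17.5 CPM in lin-4p::GFP high sort 2, with the next library at 6.13 CPM. dod-21 was at 6.70 CPM in the same library, with the next at 2.16 CPM. dod-21 also stood out in mir-240/786p::GFP low sort 4 (1.74 CPM, next 0.450), in mir-240/786p::GFP high sort 1 (0.143 CPM, the others at 0) and in mir-243p::GFP low sort 4 (0.0467 CPM, next 0.0819). The values of dod-21 in the last pair of groups rest on 3 counts or fewer. dod-17 was at 3.23 CPM in lin-4p::GFP low sort 5 (next 0.903) and at 2.17 CPM in mir-240/786p::GFP low sort 3 (next 1.17). dod-20 was at 1.03 CPM in lin-4p::GFP high sort 6 (next 0.515).

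In all 3 autofluorescence sorts dod-21 was lower in long-lived animals (mean difference −0.0764 CPM), whereas it was higher in all 6 lin-4p::GFP sorts (1.84 CPM) and in all 4 mir-240/786p::GFP sorts (0.650 CPM). The difference between biomarkers was not tested, and the autofluorescence values lie at or below 3 counts, where they have no order.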

How the results depend on the processing

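With a threshold of 0.05 in place of 0.0001, 9509 genes were called in the pooled comparison, 7149 by lin-4p::GFP, 7288 by mir-240/786p::GFP, 6125 by autofluorescence and 104 in the interaction, and 6 dod genes in each biomarker. DESeq2 called 3170 genes by lin-4p::GFP, 3354 by mir-240/786p::GFP, 2034 by autofluorescence and 12 in the interaction, with 2 dod genes by autofluorescence. The replicate block, which pairs the libraries of a sort, called 3407 genes by mir-240/786p::GFP and 2187 by autofluorescence, where 0 dod genes were called. It changed the calls of dod-3 and dod-18 by lin-4p::GFP, dod-18 by mir-240/786p::GFP and dod-24 by autofluorescence, as given above, and no other call of a dod gene at 0.0001. At 0.05 dod-19 by lin-4p::GFP passed with it (adjusted p = 0.0397) and dod-17 by mir-240/786p::GFP did not (0.0603). With only the libraries of 1 biomarker in the fit, 280 genes were called by lin-4p::GFP and 130 by autofluorescence, with 0 dod genes in both, a setting with fewer libraries. In lin-4p::GFP sorts 3 to 6 alone, 1089 genes and 0 dod genes were called, and in sorts 1 and 2 alone 1 dod gene. The value of dod-17 by lin-4p::GFP turned to 1.23 in sorts 1 and 2 alone and was −1.47 in sorts 3 to 6 alone. Without low sort 5 it turned to 0.46, and over all libraries left out in turn it ranged from −1.01 to 0.46. The cause of these shifts was not tested.

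When 1 library was left out, the pooled count ranged from 4488 to 5002, with 5 dod genes throughout. The count by lin-4p::GFP ranged from 1566 to 2093. By mir-240/786p::GFP it ranged from 1311 (without high sort 3) to 2390 and was 1328 without low sort 2, with 2 or 3 dod genes. By autofluorescence it ranged from 247 (without low sort 2) to 1191 and was 347, 554, 474 and 508 without high sort 3, high sort 2, low sort 1 and low sort 3, with 0 or 1 dod genes. Of the alternative values of single dod genes over all comparisons, 1524 kept direction and call, 22 lost a call, 5 gained one and 2 turned direction. The values that kept both include those of the interaction, which have no direction and could change only in their call. Depth limits dod-3, dod-17, dod-20 and dod-21, with 2, 5, 9 and 23 libraries at or below 3 counts. The values of dod-20 and dod-21 in lin-4p::GFP sorts 3 to 6 alone were computed after seeing the data.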
